A study of Mus musculus with 9 samples.

Results

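The nuclear genes of respiratory complex I were followed in RAW264.7 macrophages across 3 treatments. The members were all genes whose mouse symbol was Nduf, one of the letters a, b, c, s or v and a number, together with Ndufab1, and whose mean over the 9 columns of the table was at least 1 TPM, a share of transcripts corrected for length. Assembly factors, named Ndufaf, were left out by this rule. It gave 37 genes of 55401 listed, and all 37 genes with such a symbol passed the limit, along with 12819 genes in all. They fell into 14 genes of module a, 10 of module b, 2 of module c, 8 of module s and 3 of module v, the letters being those of the gene symbols.

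RAW264.7 is a mouse macrophage line that arose from a tumour induced by Abelson murine leukemia virus, and all cells carried the WT genotype. RNA was sequenced after 24 h (the time in the sample labels) of vehicle (DMSO), of lipopolysaccharide with vehicle (DMSO+LPS, called LPS here), or of lipopolysaccharide with skatole (LPS+Skatole, called LPS + Ska here), with 3 columns numbered 5, 6 and 7 in each group. Lipopolysaccharide is a bacterial cell wall component that activates macrophages, and skatole is 3-methylindole. The question put by the design was what LPS did to these genes and whether skatole changed that. The sources did not state that the columns were separate cultures, so p-values measured only the spread between columns, which may be technical.

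Complex I, or NADH:ubiquinone oxidoreductase, is the entry point of the mitochondrial respiratory chain. Its matrix arm oxidizes NADH at a flavin bound by Ndufv1 and passes the electrons along iron-sulfur clusters to ubiquinone, and its membrane arm pumps protons. Core subunits, shared with bacteria, do the chemistry, and supernumerary subunits around them are needed for assembly and stability. The membrane core is encoded by the mitochondrial genome, so the nuclear membrane arm genes are all supernumerary. In macrophages complex I is known as a source of reactive oxygen species when electrons run backwards through it. Of the 37 members, 16 encode subunits of the matrix arm and 19 of the membrane arm, 7 are core and 30 supernumerary. Ndufab1, the mitochondrial acyl carrier protein, sits in both arms. Ndufa4 keeps a complex I name but is now counted as a subunit of complex IV.

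A property of the deposited values touches every result below. For all 37 members, the TPM of replicate 5 lay exactly midway between those of its companions, replicates 6 and 7, under LPS and likewise under LPS + Ska. The same was true of 17950 of 17950 and 17658 of 17658 genes with every column above 0, the largest gap being 5e-06 TPM. In DMSO this held for 0 of the 37 members and for 10 of 15721 genes. Each tied group therefore held at most 2 independent values per gene, and its 3 columns were evenly spaced. Counts of called members and many tests of single genes are accompanied below by the same test on 2 values per tied group. These were recovered from the column differences and are called recovered values. They lay closer together than the deposited columns, for Ndufv3 with LPS + Ska at 25.6 and 39.9 TPM against 18.4 to 47.0 TPM. SDs, coefficients of variation and overlaps of the tied groups below are those of the deposited columns, which are wider. As a check of the labels, 6 of 6 LPS response genes rose with LPS and 8 of 8 macrophage markers were detected, while the markers of B cells, T cells, fibroblasts and epithelium each summed to at most 0.672 TPM in any column and those of granulocytes to at most 3.07 TPM. The 4 osteoclast markers, led by Acp5 and with 1 at 0 in every column, summed to 16.3 to 22.2 TPM with DMSO, 47.2 to 50.3 TPM with LPS and 41.7 to 50.4 TPM with LPS + Ska, and the part of this in the results was not tested. Of the 8 macrophage markers, 3 were called lower with LPS (Csf1r, Lyz2 and Spi1), and with LPS + Ska against LPS 1 was higher (Lyz2, from 4423 to 10060 TPM) and 1 lower (Fcgr1). Over the DMSO columns the markers summed to 12314 to 13275 TPM. The LPS columns, at 7273 to 7673 TPM, were below these, and the LPS + Ska columns, at 13560 to 13853 TPM, above them. Lyz2 was the largest part of these sums, at 8866 to 9673 TPM with DMSO, 4219 to 4627 TPM with LPS and 9915 to 10207 TPM with LPS + Ska. Sums without Lyz2 were not taken, and the markers' part in the results was not tested. TPM keep no read depth, which is unknown. In bulk RNA, fewer cells of a type and less RNA per cell cannot be told apart.

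Complex I transcripts were abundant and spread over a 14.1-fold range of mean TPM. The median member had a mean of 99.1 TPM, at the 86.7th percentile of all genes tested, whose median was 20.7 TPM. The order ran from Ndufa4 at 312 TPM through Ndufs8 at 249 TPM and Ndufs7 at 232 TPM, which carry iron-sulfur clusters near the ubiquinone site, down to Ndufs6 at 33.8 TPM, Ndufb2 at 32.7 TPM and Ndufa3 at 22.2 TPM. Ndufs8 and Ndufs7, neighbours in this order, overlapped with DMSO, where Ndufs8 was at 275 ± 16.6 TPM (SD, n = 3) and Ndufs7 at 263 ± 22.0 TPM. With LPS the Ndufs8 columns, at 229 to 233 TPM, lay above those of Ndufs7, at 202 to 216 TPM. With LPS + Ska they overlapped again, and the 2 genes were not tested against each other. Members were short, with a median transcript of 908 nt against 2553 nt for all genes tested.

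**Figure D1:**
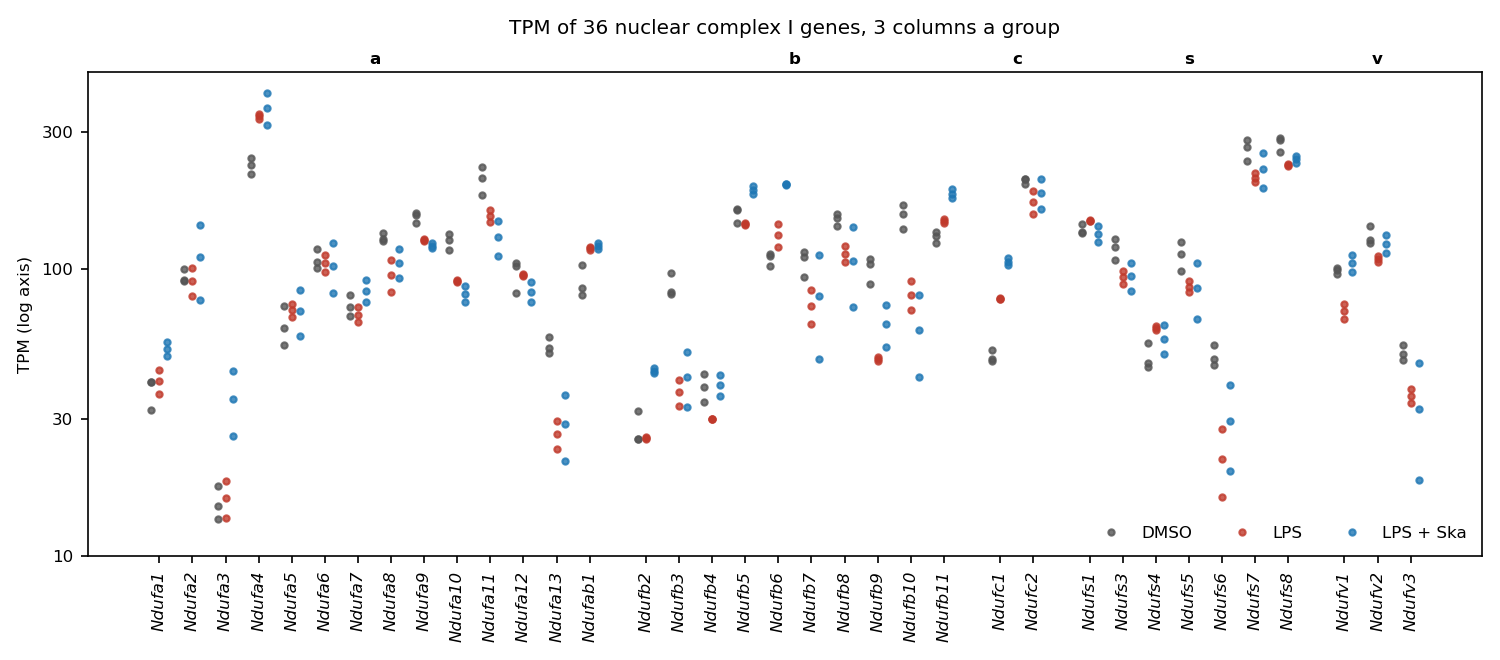
TPM (vertical log axis) of 36 of the 37 genes in every column, ordered by module letter, with 3 points a group for DMSO, LPS and LPS + Ska. Ndufa3 at the lower edge stood highest in the LPS + Ska columns (26.2 to 44.3 TPM), while Ndufb3, Ndufb9, Ndufa13 and Ndufs6 sat lower in both LPS groups than in DMSO.

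With LPS, 5 supernumerary genes fell to between 0.43 and 0.53 of their DMSO level. The summed TPM of the 37 genes was 4335, 4374 and 4237 TPM in the DMSO columns and 3796, 3763 and 3829 TPM in the LPS columns, 88.0% of the DMSO mean. The LPS columns were all below the DMSO columns. The median log2 fold change over the members was -0.26, against -0.07 over all genes tested, and 27 of 37 genes had a negative value. The median was -0.17 with columns scaled by median ratios and -0.079 with the length trend removed, and the members were not tested as a group. A gene was called when its adjusted p was below 0.05 and its fold was over 1.5 or under 0.67. In these terms 1 member rose (12.7% of all genes tested rose) and 5 fell (20% of all genes fell), and the counts were also 1 and 5 with recovered values (12.8% and 19.8% of all genes). Both shares of the members were below those of all genes. By adjusted p alone 6 were higher (26.2% of all genes) and 17 lower (34.2%). With recovered values these were 6 and 21 (3184 and 4226 of all 12819 genes). The columns did not overlap, with LPS below, in 21 members (38.6% of all genes), and with LPS above in 7 (30.3%). With columns scaled by median ratios, which moved the median of all genes by 0.07, 2 members rose (15.4% of all genes) and 5 fell (16.8%).

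The 5 that fell were all supernumerary, 4 in the membrane arm and 1 in the matrix arm. Ndufb3, a small membrane arm subunit, was at 82.0, 96.8 and 83.1 TPM with DMSO and at 37.2, 33.4 and 41.0 TPM with LPS. Every LPS column lay below every DMSO column, and the log2 fold change was -1.21 ± 0.15 (SE; adjusted p = 9.3e-05, limma with Benjamini-Hochberg adjustment; 7e-05 with recovered values). Ndufs6, a zinc-binding subunit of the NADH end of the matrix arm, went from 54.6, 48.8 and 46.2 TPM to 21.9, 16.0 and 27.7 TPM. The groups did not overlap, although the LPS columns spread widely with a coefficient of variation of 26.7%, the highest among members in that group, and the log2 fold change was -1.18 ± 0.24 (adjusted p = 0.0023, limma; 0.00047 with recovered values). Ndufb9, a subunit of the LYR motif family, went from 104, 88.7 and 108 TPM to 48.6, 47.8 and 49.4 TPM. This was a clean separation with a log2 fold change of -1.03 ± 0.12 (adjusted p = 6.7e-05, limma; 0.0001 with recovered values).

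Ndufa13, also known as GRIM-19 and a membrane arm subunit, was at 53.2, 51.1 and 58.3 TPM with DMSO and at 26.6, 23.6 and 29.5 TPM with LPS. The groups were apart and the log2 fold change was -1.0 ± 0.16 (adjusted p = 0.0006, limma; 0.00022 with recovered values). Ndufb10, on the intermembrane space side, was at 167, 156 and 138 TPM against 81.7, 72.3 and 91.0 TPM, again without overlap, with a log2 fold change of -0.91 ± 0.20 (adjusted p = 0.0032, limma; 0.00073 with recovered values). These 5 calls held under all 23 alternative settings, with adjusted p of 5.7e-06 to 0.017 over them (limma). Exons of Ndufa13 overlap those of Tssk6 on the opposite strand over 375 bases, and Tssk6 went from 16.2 to 6.35 TPM; exons of Ndufs6 overlap 30 bases of Mrpl36. The library kit was not stated to keep the strand, so reads in such stretches could not be assigned to 1 of the genes, and their part in the changes was not tested.

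The single member that rose was Ndufc1, a small membrane arm subunit. It was at 52.5, 48.0 and 48.6 TPM with DMSO and at 79.1, 79.2 and 79.0 TPM with LPS, well apart, and its log2 fold change was 0.66 ± 0.05 (adjusted p = 8.8e-06, limma; 9.3e-05 with recovered values). Ndufa4 went from 231, 245 and 216 TPM to 342, 335 and 348 TPM. Its columns did not overlap and its log2 fold change of 0.57 ± 0.09 (adjusted p = 0.00039, limma) stood just inside the fold limit, so that it was called under 4 of the 23 alternatives, among them median-ratio scaling, at 0.65, and without DMSO replicate 6. Ndufab1 was at 104, 85.9 and 81.5 TPM against 118, 120 and 117 TPM, with a log2 fold change of 0.39 (adjusted p = 0.0025, limma). Its columns were apart, but a processed pseudogene, Ndufab1-ps, was listed at a mean of 26.5 TPM, so reads of Ndufab1 may have been split with it.

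In the same comparison none of the 7 core genes was called by limma, while 6 were lower both by adjusted p alone (34.2% of all genes) and at an unadjusted p below 0.05. The share of all genes at the unadjusted limit was not counted, here or below. Their median log2 fold change was -0.26, beside -0.18 for the 30 supernumerary genes, of which 11 were lower by adjusted p alone, and their summed TPM was 84.1% of DMSO, beside 89.6%. The supernumerary set included Ndufa4, the most abundant member, which went from 231 to 342 TPM with LPS and is now counted in complex IV. Its values without Ndufa4 were not taken, so this contrast may rest in part on that gene. Core and supernumerary genes were not tested against each other. Ndufv1, which binds the flavin and NADH, was at 99.8, 96.0 and 101 TPM with DMSO and 71.3, 67.0 and 75.6 TPM with LPS, without overlap, and its log2 fold change of -0.47 ± 0.07 (adjusted p = 0.00027, limma) was the largest among the core genes. Ndufs3 and Ndufs7, near the ubiquinone site, both had a log2 fold change of -0.33 (adjusted p = 0.011 and 0.017, limma). Ndufs8 and Ndufv2, both iron-sulfur proteins, were at -0.25 and -0.26. The exception was Ndufs1, the largest core subunit, at 0.10 (95% interval -0.03 to 0.23). By module, the medians were -0.05 for a, -0.37 for b, 0.21 for c, -0.29 for s and -0.47 for v, and the summed TPM fell to 78.8% of DMSO in b and 76.9% in v, but stood at 97.5% in a, the module of Ndufa4.

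**Figure D2:**
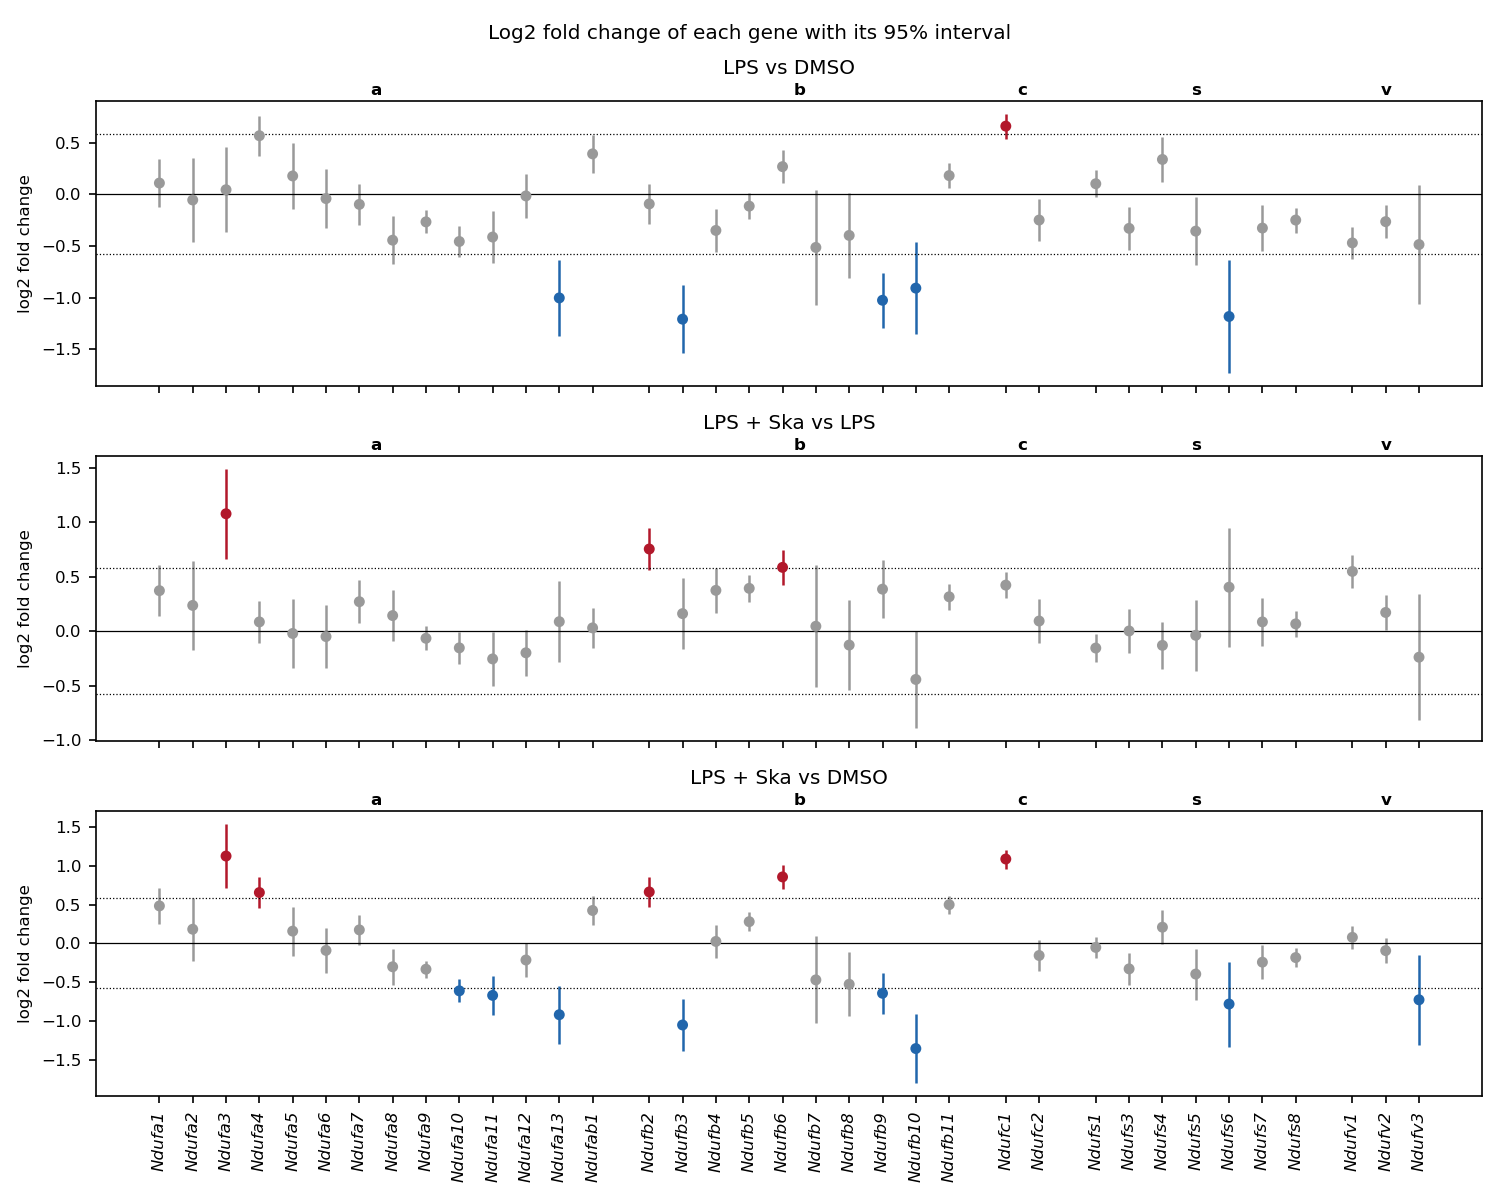
Log2 fold change with its 95% interval (bars) for 36 of the 37 genes in the 3 comparisons, red for genes called higher, blue for lower and grey for not called, with dotted lines at the fold limits of 1.5 and 0.67. Of the 37 genes, 1 was red and 5 blue with LPS against DMSO, 3 red and 0 blue with LPS + Ska against LPS, and 5 red and 8 blue with LPS + Ska against DMSO.

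When skatole was added to LPS, Ndufa3, Ndufb2 and Ndufb6 rose, all of them supernumerary genes of the membrane arm, and no member was called lower. This was 3 of 37 members called higher (3.35% of all genes tested) and 0 lower (6.14% of all genes), by limma. At an unadjusted p below 0.05, 12 members were higher and 3 lower, counts without a share of all genes to set beside them. With recovered values the counts were 2 and 0 (2.82% and 4.99% of all genes), since Ndufb6 dropped out. By adjusted p alone 11 members were higher (8.89% of all genes) and 0 lower (19.7% of all genes). With recovered values these were 8 and 0 (756 and 1630 of all 12819 genes). The LPS + Ska columns lay above all LPS columns in 13 members (17.2% of all genes) and below in 5 (34% of all genes). The median log2 fold change was 0.09 over the members and -0.10 over all genes tested. With median-ratio scaling these were 0.19 and -0.005, with 4 members called higher (4.59% of all genes) and 0 lower (4.24%) by limma.

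Ndufa3, a small membrane arm subunit and the least abundant member, was at 15.9, 13.5 and 18.3 TPM with LPS and at 35.2, 26.2 and 44.3 TPM with LPS + Ska. The lowest LPS + Ska column was above the highest LPS column, although the LPS + Ska columns themselves spanned a wide range. With DMSO it had been at 17.6, 15.0 and 13.5 TPM, overlapping LPS (log2 fold change 0.04). The log2 fold change with skatole was 1.08 ± 0.18, a factor of 2.11 on the TPM + 1 scale (adjusted p = 0.0029, limma; 0.0045 with recovered values; 0.00045 to 0.04 over the 23 alternatives, called in all). Its exons share 4 bases with Tfpt on the opposite strand.

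Ndufb2, also a small membrane arm subunit, was at 25.9, 25.7 and 26.0 TPM with LPS and 44.3, 45.2 and 43.4 TPM with LPS + Ska. Both groups were tight and far apart, and the DMSO columns, at 25.7, 32.0 and 25.7 TPM, overlapped LPS. Its log2 fold change with skatole was 0.75 ± 0.09 (adjusted p = 0.00046, limma; 0.0054 with recovered values; up to 0.041 over the alternatives, called in all). Exons of Ndufb2 overlap 146 bases of Braf on the opposite strand, and Braf stood at 7.85, 16.9 and 14.0 TPM in DMSO, LPS and LPS + Ska, and its part in the change was not tested.

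Ndufb6 was at 112, 113 and 102 TPM with DMSO, at 132, 120 and 144 TPM with LPS and at 198, 196 and 199 TPM with LPS + Ska. The groups followed each other without overlap. The log2 fold change with skatole was 0.59 ± 0.07 (adjusted p = 0.00058, limma), at 1.501-fold barely past the limit, and with recovered values it was 0.58 (adjusted p = 0.0028) and not called. Over the alternatives its adjusted p was 0.00035 to 0.025 (limma), and 7 of 23 alternatives did not call it. Among them were the fits that left out LPS replicate 6, at 0.52, or LPS + Ska replicate 7, at 0.58. Exons of Ndufb6 overlap 257 bases of Smim27 on the opposite strand. Smim27 stood at 1.18, 0.66 and 2.96 TPM in DMSO, LPS and LPS + Ska, and its part in the change was not tested. Ndufv1 stood on the other side of the same fold limit. It was at 105, 97.7 and 112 TPM with LPS + Ska, above its 3 LPS columns of 67.0 to 75.6 TPM and level with its DMSO columns of 96.0 to 101 TPM. Its log2 fold change was 0.55 ± 0.07, or 1.46-fold (adjusted p = 0.00064, limma; 0.0028 with recovered values), it was not called, and 5 of 23 alternatives called it, among them those that left out LPS replicate 7 or LPS + Ska replicate 6. Of the other members, Ndufs6 was called (higher) in 1 alternative, without LPS + Ska replicate 6, and Ndufb10 (lower) in 2.

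Further genes of the membrane arm were higher by adjusted p but short of the fold limit. Ndufc1 was at 107, 109 and 104 TPM with LPS + Ska, above its LPS columns of 79.0 to 79.2 TPM, with a log2 fold change of 0.42 (adjusted p = 0.00078, limma). Ndufb5 and Ndufb11 stood at 0.39 and 0.32 (adjusted p = 0.0013 and 0.0025, limma), and with recovered values their adjusted p was 0.0098 and 0.016. Ndufb4 (0.38) and Ndufb9 (0.39) had adjusted p of 0.015 and 0.036, and 0.051 and 0.048 with recovered values. Exons of Ndufb5 overlap those of Mrpl47 over 616 bases and those of Ndufb11 overlap Rbm10 over 117 bases, in both cases on the opposite strand.

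By module, b had the highest median log2 fold change with skatole, 0.35, with 6 of 10 genes higher by adjusted p alone (8.89% of all genes) and 0 lower (19.7% of all genes). Modules a, c, s and v had medians of 0.06, 0.26, -0.02 and 0.17, with 3 of 14, 1 of 2, 0 of 8 and 1 of 3 genes higher by adjusted p. At an unadjusted p below 0.05, module s held 0 higher and 1 lower gene. The membrane arm median was 0.16, with 9 of 19 genes higher, and the matrix arm median was -0.01, with 2 of 16 genes higher. With recovered values 5 of 10 genes of module b and 1 of 14 of module a were higher by adjusted p alone. In the membrane and matrix arms these were 7 of 19 and 1 of 16. Modules were not tested against each other. The 5 genes that had fallen with LPS were not called against LPS. Ndufb9, the 1 of them with an adjusted p below 0.05 (0.036, limma), had a log2 fold change of 0.39 (95% interval 0.12 to 0.65), Ndufa13 one of 0.09 (-0.28 to 0.46), Ndufb3 one of 0.16 (-0.17 to 0.49), Ndufs6 one of 0.40 (-0.14 to 0.95) and Ndufb10 one of -0.44 (-0.89 to 0.00), intervals that leave room for changes past the fold limit in Ndufb9, Ndufs6 and Ndufb10. Of other core genes, Ndufs8 was at 0.07 (-0.05 to 0.19), Ndufs7 at 0.09, Ndufs3 at 0.00, Ndufv2 at 0.17 and Ndufs1 at -0.15.

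**Figure D3:**
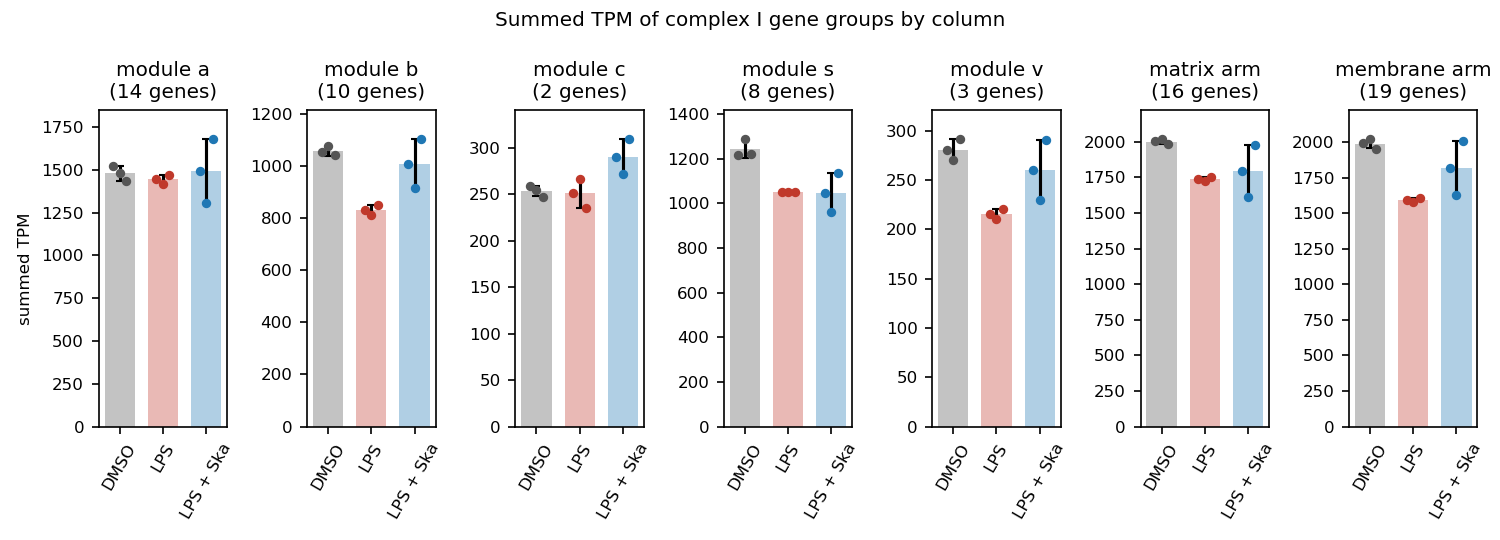
Summed TPM of the genes of each module and of each arm, with a point for every column, bars for the group mean and error lines for the SD of 3 columns, for DMSO, LPS and LPS + Ska. Module b went from 1058 to 834 and 1010 TPM and module s from 1243 to 1052 and 1049 TPM, and in every panel the LPS + Ska points were the most spread.

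The summed TPM of all members with LPS + Ska was 4103, 3685 and 4521 TPM, or 4103 ± 418 (SD, n = 3, tied columns), against 3796 ± 32.9 with LPS. As deposited, the LPS + Ska columns straddled the LPS columns. The sum was not tested and was not taken over recovered values, which lie closer together. The sum of module b was 1010, 915 and 1105 TPM against 834, 814 and 853 TPM with LPS, and those columns did not overlap. Replicates 6 and 7 of LPS + Ska differed in one direction in most members. Replicate 7 was above replicate 6 in 32 of 37 members, against 39.3% of all genes tested, with a median log2 ratio of 0.34, and it was so in 16 of 37 members with DMSO and 23 of 37 with LPS. The ratio was higher in shorter transcripts (Spearman's rho -0.50 over 37 genes of the same pair of columns), against 0.37 with DMSO and -0.20 with LPS, a description across genes that share their libraries. Without LPS + Ska replicate 6 the median log2 fold change against LPS was 0.19 over the members and -0.11 over all genes. There 5 members were called higher (503 of all 12819 genes) and 0 lower (996 of all genes). Without replicate 7 the median was 0.01 over the members and -0.07 over all genes. There 2 members were called higher (402 of all genes) and Ndufb10 lower (724 of all genes). Part of the skatole comparison thus rested on which of these columns was used, except for Ndufa3 and Ndufb2, which were called either way. Whether transcript length had a part in the results was not tested beyond fits with the length trend removed, in which Ndufa3 and Ndufb2 stayed called. Ndufb6 was not called in these fits, at 0.57, or at 0.48 where the column levels were kept. Ndufv1 was called, at 0.59, in the fit that did not keep the column levels.

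**Figure D4:**
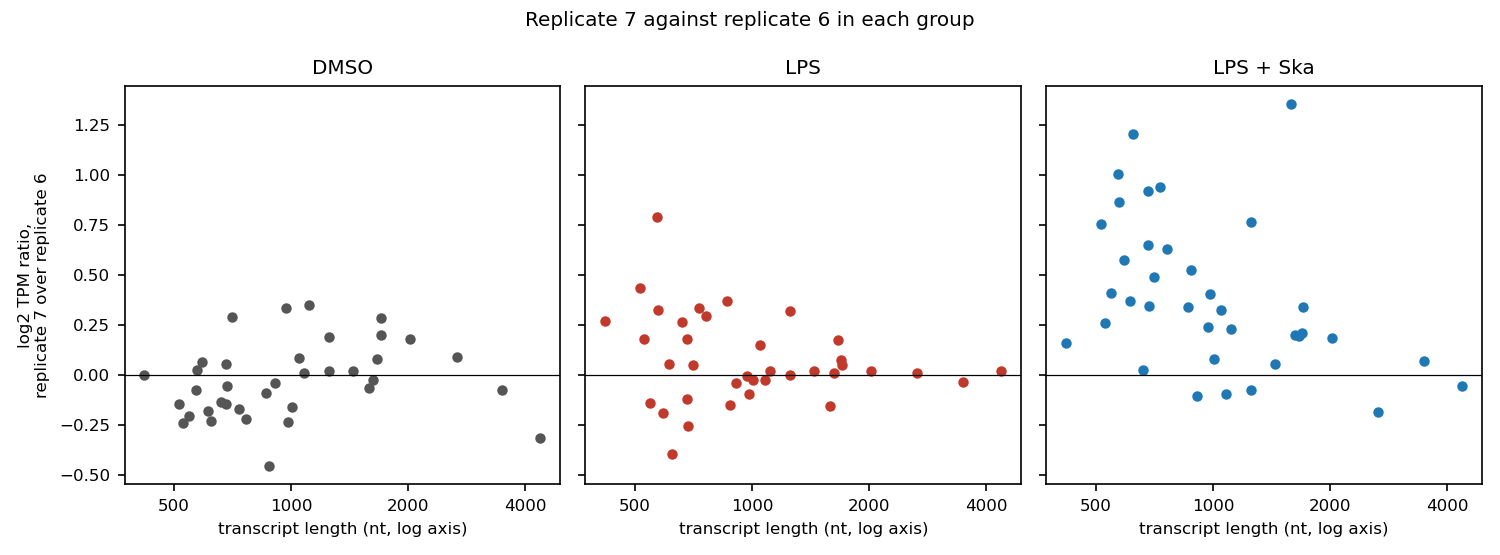
Log2 ratio of TPM in replicate 7 over replicate 6 for each of the 37 genes against the length of its longest principal transcript (log axis, nt), in 1 panel for each group. Points of LPS + Ska lie mostly above 0 (32 of 37) and highest at short lengths, and those of DMSO lie on both sides (16 of 37 above).

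Against DMSO, the LPS + Ska cells held complex I genes on both sides, with Ndufa3, Ndufa4, Ndufb2, Ndufb6 and Ndufc1 higher and Ndufa10, Ndufa11, Ndufa13, Ndufb3, Ndufb9, Ndufb10, Ndufs6 and Ndufv3 lower. These were 5 of 37 higher (11.4% of all genes tested) and 8 lower (25.3% of all genes), and the counts were also 5 and 8 with recovered values (11.4% and 25% of all genes). By adjusted p alone 9 were higher (22.7% of all genes) and 15 lower (40.6% of all genes). The columns were apart with LPS + Ska above in 9 members (23% of all genes) and below in 14 (41.8%). The median log2 fold change was -0.15 over members and -0.18 over all genes, and with median-ratio scaling, which moved the median of all genes by 0.16, it turned to 0.03, with 8 members higher (16.8% of all genes) and 3 lower (17.9%). Without LPS + Ska replicate 6 the 8 lower became 3, a count with no share of all genes set beside it here. This comparison shares the DMSO columns with the first and the LPS + Ska columns with the second. The first and the second share the LPS columns, with at most 2 independent values per gene, in opposite directions. A deviation in those columns would thus move a gene down in one and up in the other.

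Ndufc1, at 49.7 ± 2.46 TPM with DMSO and 106 ± 2.92 TPM with LPS + Ska (SD, n = 3), had a log2 fold change of 1.08 ± 0.05 (adjusted p = 4.5e-07, limma; 8e-06 with recovered values). Ndufa3 was at 1.12 ± 0.18 (adjusted p = 0.00052, limma) and Ndufb6 at 0.85 ± 0.07 (adjusted p = 7.1e-06, limma). Ndufb2 was at 0.66 (adjusted p = 0.00013, limma) and Ndufa4 at 0.65 (adjusted p = 0.00014, limma), the latter not called in 4 of 23 alternatives, among them without LPS + Ska replicate 7, at 0.56. The other 4 of these risers were called under every one of the 23.

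Among the genes lower than DMSO, Ndufb10 was furthest down, at 61.7, 42.3 and 81.1 TPM with LPS + Ska against 138 to 167 TPM, with a log2 fold change of -1.35 ± 0.20 (adjusted p = 0.00027, limma). Ndufb3 was at -1.05 and Ndufa13 at -0.92 (adjusted p = 0.00019 and 0.00094, limma). These 3 calls held under all alternatives. Ndufa10 (-0.61), Ndufa11 (-0.67), Ndufb9 (-0.64), Ndufs6 (-0.78) and Ndufv3 (-0.72), a gene of the NADH end at 32.7, 18.4 and 47.0 TPM with LPS + Ska, were not called in 8, 3, 4, 5 and 10 of 23 alternatives, among them, for all 5, median-ratio scaling and leaving out LPS + Ska replicate 6. Leaving out DMSO replicate 5 also ended the calls of Ndufs6 and Ndufv3, DMSO replicate 7 those of Ndufa10 and Ndufv3, and DMSO replicate 6 or LPS + Ska replicate 5 that of Ndufv3, while Ndufb7 (-0.74) and Ndufb8 (-0.74) were called lower when LPS + Ska replicate 7 was left out. Ndufv3 had the widest spread of all members, with a coefficient of variation of 43.8% in LPS + Ska. No core gene was called by limma in this comparison, where 3 of the 7 were lower by adjusted p alone and 4 at an unadjusted p below 0.05, among them Ndufs3 at -0.33 and Ndufs8 at -0.18.

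The stretch before the start of the 3 genes that rose with skatole is shown next, so that they can be compared by eye and with the motif counts below. Each line is the 250 bases upstream of a RefSeq start on GRCm38.p6, the patch release of the build of the files (mm10), read 5′ to 3′ on the strand of the gene, and capitals mark matches to the motifs searched, of which Ndufa3 and Ndufb2 held none here.
Ndufa3 (chr7:3617123-3617372, plus strand): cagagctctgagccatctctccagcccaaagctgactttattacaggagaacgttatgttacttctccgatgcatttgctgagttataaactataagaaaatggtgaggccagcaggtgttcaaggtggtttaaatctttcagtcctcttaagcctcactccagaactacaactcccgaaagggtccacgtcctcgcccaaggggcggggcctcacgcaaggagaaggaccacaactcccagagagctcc
Ndufb2 (chr6:39592315-39592564, plus strand): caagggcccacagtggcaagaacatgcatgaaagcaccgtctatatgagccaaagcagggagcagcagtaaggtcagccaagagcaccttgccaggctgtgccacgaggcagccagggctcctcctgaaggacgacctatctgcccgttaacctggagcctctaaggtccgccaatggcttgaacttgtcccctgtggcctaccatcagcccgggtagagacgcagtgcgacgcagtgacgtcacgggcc
Ndufb6 (chr4:40279422-40279671, minus strand): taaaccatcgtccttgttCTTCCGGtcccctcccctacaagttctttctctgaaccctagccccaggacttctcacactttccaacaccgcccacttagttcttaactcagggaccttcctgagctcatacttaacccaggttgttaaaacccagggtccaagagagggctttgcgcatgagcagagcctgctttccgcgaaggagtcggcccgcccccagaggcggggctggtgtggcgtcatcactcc

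These genes are protein coding and lie, by GENCODE on the same build, at chr7:3617373-3620327 on the plus strand (Ndufa3), chr6:39592574-39603382 on the plus strand (Ndufb2) and chr4:40270591-40279421 on the minus strand (Ndufb6). RefSeq windows of 300 bases, 250 before and 50 after the start, were at hand for 33 of the 37 members. Members had a median GC content of 59.0% in these windows, against 52.7% for all 32851 windows. In all, 5 motifs of factors known to act on respiratory or inflammatory genes were searched on both strands, with a gene counted once. The motif of NRF1, a regulator of nuclear respiratory genes, was searched as GCGCA, any base and GCGC, which is nearly its own reverse complement. It was found in 7 of 33 members, or 21.2%, against 5.19% of all 27025 genes with a window and 12.8% of those that passed the TPM limit. The ETS motif of GA-binding protein, CCGGAAG, was in 4 members, or 12.1%, against 9.93% and 22.5%. The antioxidant response motif TGACNNNGC was in 7 members, or 21.2%, against 14% and 17%. The NF-kB motif (GGGA, any base and TTTCC) was in 0 of 33, against 0.466% and 0.529%. None of the motifs is contained in another.

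The YY1 motif AAGATGGC stood in 7 of 33 members, or 21.2%, against 3.19% of all genes with a window and 5.95% of those past the limit. All 7 matches lay on the strand of the gene, 22 to 38 bases after the start site, and all 7 held an annotated start codon, the ATG within the motif. The genes were Ndufa3, Ndufa9, Ndufb8, Ndufc1, Ndufs4, Ndufs6 and Ndufs7, so members that rose with skatole (Ndufa3), that rose with LPS (Ndufc1) and that fell with LPS (Ndufs6) shared it. The 5 sites with 8 bases to each side inside the window are shown, with the motif in capitals.
Ndufa3 (chr7:3617387-3617410, plus strand): ccaagaacAAGATGGCcgggagta
Ndufa9 (chr6:126849100-126849123, minus strand): tgtgggagAAGATGGCggccgccg
Ndufc1 (chr3:51408918-51408941, minus strand): tgcggaacAAGATGGCgccgtccg
Ndufs6 (chr13:73328434-73328457, minus strand): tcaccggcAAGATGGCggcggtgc
Ndufs7 (chr10:80249465-80249488, plus strand): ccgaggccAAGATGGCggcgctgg

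Ndufs6 also held an NRF1 match 16 bases before its start, which is shown with those of Ndufa8 and Ndufa11, in capitals.
Ndufs6 (chr13:73328481-73328506, minus strand): actgctgtGCGCCTGCGCcggcactt
Ndufa8 (chr2:36049351-36049376, minus strand): agagcagtGCGCTTGCGCgtcgctgg
Ndufa11 (chr17:56717694-56717719, plus strand): tgcactgcGCGCATGCGCgcacgcct
These matches are letters in a window and were not measured as binding. Of the factors themselves, Nrf1 was at 25.1, 25.8 and 20.0 TPM in DMSO, LPS and LPS + Ska and Yy1 at 58.8, 67.8 and 65.8 TPM, and neither was called in any comparison.

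The partners of the nuclear subunits were read from lists of genes. Of 19 assembly factors, which join the modules and leave the finished enzyme, 18 were tested. With LPS 2 were called higher (12.7% of all genes) and 3 lower (20%), with a median log2 fold change of -0.25. Ndufaf4 went from 46.4 to 72.4 TPM (0.63, adjusted p = 0.00015, limma) and Tmem70 from 57.4 to 94.6 TPM (0.71, adjusted p = 1e-05, limma), while Ndufaf3, Dmac1 and Dmac2 were called lower. Of these calls, those of Ndufaf3, Dmac1, Dmac2 and Ndufaf4 were lost in 8, 1, 6 and 2 of 23 alternatives, so that with median-ratio scaling Dmac1 alone was called lower. Leaving out 1 column ended each of them, namely DMSO replicate 5 or 6 or LPS replicate 7 for Ndufaf3, DMSO replicate 5 or 6 or LPS replicate 6 for Dmac2, LPS replicate 7 for Dmac1, and DMSO replicate 7 or LPS replicate 6 for Ndufaf4. With LPS + Ska against LPS 1 was called lower (6.14% of all genes) and 0 higher (3.35%). It was Nubpl, which delivers iron-sulfur clusters, at 2.8 against 5.0 TPM (-0.63, adjusted p = 0.012, limma). This call was lost in 7 of 22 alternatives, among them those without LPS replicate 5 or 7 or LPS + Ska replicate 5. By adjusted p alone 2 were higher (8.89% of all genes) and 3 lower (19.7%). Against DMSO 3 were higher (11.4% of all genes) and 6 lower (25.3%), among them Ndufaf4 at 0.98, Dmac2 at -1.04 and Ecsit at -0.88.

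Of the 7 complex I genes in the mitochondrial genome, 1 rose with LPS (12.7% of all genes) and 1 with LPS + Ska against LPS (3.35%), in both cases mt-Nd3. It was at 171, 121 and 138 TPM with DMSO, at 286, 207 and 366 TPM with LPS and at 927, 921 and 934 TPM with LPS + Ska. The 3 groups did not overlap, and the log2 fold changes were 0.97 and 1.73 (adjusted p = 0.0015 and 0.00032, limma). The other 6 were between -0.53 and 0.54 in the skatole comparison, and mt-Nd6, on the other strand of the mitochondrial genome, was called only against DMSO, at 0.84 (adjusted p = 6e-06, limma). Reads from the strand opposite mt-Nd6 could not be told apart from its own. Of 11 regulators of mitochondrial biogenesis that were tested, 1 was called higher and 1 lower with LPS, with 5 higher and 3 lower by adjusted p alone and a median log2 fold change of 0.16. Tfb2m, a factor of mitochondrial transcription, rose from 29.7 to 44.8 TPM (0.59, adjusted p = 0.0026, limma), a call lost without DMSO replicate 5, and Esrra, a nuclear receptor, fell from 38.9 to 22.7 TPM (-0.75, adjusted p = 7.6e-05, limma), a call lost with the length trend removed. With skatole against LPS 1 was higher (8.89% of all genes) and 4 lower (19.7%) by adjusted p alone, all short of the fold limit. Against DMSO 2 were called lower (25.3%). Ppargc1a was listed at 0 in all 9 columns.

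The subunit genes of complexes II to V, 39 in number, served as the closest comparison. With LPS 3 were called higher (12.7% of all genes tested) and 5 lower (20%). With LPS + Ska against LPS 6 were called, each of them higher (3.35% of all genes higher, 6.14% lower). Against DMSO 7 were higher (11.4%) and 5 lower (25.3%). By adjusted p alone 13 of the 39 were higher (8.89% of all genes) and 3 lower (19.7%) with LPS + Ska against LPS. For complex I these were 11 and 0 of 37. Their medians were -0.11, 0.09 and -0.05 on the log2 scale, beside -0.26, 0.09 and -0.15 for complex I. No test between the sets was made. A further gene lies just outside the symbol rule and was singled out after its values were seen. Ndufb1-ps, which the annotation types as a bidirectional promoter lncRNA, was at 11.6, 18.4 and 16.9 TPM with DMSO, 24.9, 22.1 and 27.7 TPM with LPS and 73.6, 68.4 and 78.9 TPM with LPS + Ska. Its groups did not overlap, and its log2 fold change with skatole against LPS was 1.53 ± 0.15 (adjusted p = 0.00022, limma), above that of any of the 37 members.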

How the data were processed

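RNA of RAW264.7 macrophages in 3 groups (DMSO, LPS and LPS + Ska, 3 columns each) was measured by RNA-seq. The deposited TPM values were made by the authors, and the submitters' processing notes list fastp 0.20.1, HISAT2 2.2.1, StringTie 2.0 and the mm10 build, without the annotation, which is not given in the sources used here. TPM keep no read depth, so the depth is unknown. The treatment time is 24 h in the sample labels and in the study's results text, while its methods give another time.

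Values were tested with limma 3.58.1 (R 4.3.3) on log2(TPM + 1), with all 9 columns in 1 fit, over 12819 genes with a mean of at least 1 TPM, with Benjamini-Hochberg adjustment over all of them. Fold changes are on this scale and understate those of low genes. Calls needed an adjusted p below 0.05 and a fold over 1.5 or under 0.67. Of 55401 gene IDs, 55141 matched a symbol. Lengths, coordinates and exon overlaps came from GENCODE M21. Intervals are 95% intervals of the fit. The members and lists were chosen with earlier results of these data known. Members with full statistics were those called in LPS + Ska against LPS, the 5 largest called changes in each direction with LPS, the 3 highest and the 3 lowest in level, the core subunits, the genes the study names, Ndufa4 and Ndufab1 (the values of 1 member are not reported here), and other members called against DMSO were named after their values were seen. The script was tested on simulated data with known changes.

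Same-numbered columns of LPS and LPS + Ska had correlated deviations (0.384, 0.151 and 0.128), but in tied columns these are not separate observations, and with DMSO correlations were -0.032 to 0.080, so the numbers were not taken as pairs. Alternatives were other pseudocounts (0.1), filters (none, and 5 TPM), scalings, fits, recovered values, length trend removal and leaving out each column. Length trend removal that kept the column levels, and leaving out a recovered value, were chosen after seeing the data.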

Additional observations from a re-analysis of the deposited data

How the results depend on the processing

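The 5 members called lower with LPS, and Ndufa3 and Ndufb2 called higher with skatole, were called under each of the 23 alternatives. No member with full statistics that was called as reported changed its sign. The median over the members against DMSO did, from -0.15 to 0.028 with median-ratio scaling. With LPS against DMSO, 2 members were called higher with median-ratio scaling, with TPM rescaled after leaving out ribosomal protein genes and those of the mitochondrial genome and with the length trend removed, and 6 by adjusted p alone, while 17 were lower by adjusted p alone. The median was -0.17 with median-ratio scaling, -0.079 with the length trend removed, -0.19 where the column levels were kept and -0.19 for that with recovered values. With LPS + Ska against LPS, 11 were higher by adjusted p alone, and 1 was lower with recovered values without the second value of LPS + Ska. With LPS + Ska against DMSO, 8 were higher and 3 lower with median-ratio scaling, at a median of 0.028, 9 higher and 15 lower by adjusted p alone, 5 lower with the length trend removed and 3 lower with recovered values without the first value of LPS + Ska. Counts by adjusted p alone leave out the fold limit by construction, and the causes of the other changes were not tested. Shares of all genes for median-ratio scaling and for adjusted p alone stand beside the same counts in the results above. For the other settings in this paragraph no share is given, so those counts cannot be set against all genes.

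Leaving out each column in turn gave 1 to 2 higher with LPS (2 without DMSO replicate 6). With LPS + Ska against LPS it gave 2 to 5 higher and 0 to 1 lower. The 5 higher came without LPS + Ska replicate 6 (503 of all 12819 genes). The 1 lower came without LPS + Ska replicate 7 (724 of all genes). With LPS + Ska against DMSO it gave 3 to 10 lower (3 without LPS + Ska replicate 6). For the other counts with a column left out, no share of all genes is given. A fit with the replicate block gave 1 higher and 5 lower with LPS (1649 and 2586 of all 12819 genes). It gave 3 and 0 with LPS + Ska against LPS (427 and 771 of all genes), and 5 and 8 against DMSO. These were the same counts as without the block, and the pairing was not taken as given. Unknown depth limits what can be said of Ndufa3, the lowest member, and the tied columns leave 2 independent values per gene in 2 of 3 groups.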
